A study of Mus musculus with 2 samples.

Results

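Serpinb2 and 6 further genes of plasminogen activation and coagulation were followed through the cells of small B16F10 melanomas grown in hosts with and without Atf4. The 7 genes were Serpinb2, Serpine2, Plau, Plaur, Plat, F3 and F10, of 31053 genes in the count matrices. They were taken from a list of activators, inhibitors, a receptor and clotting factors. Serpinb2 was put on that list because its KO/WT ratio in fibroblasts was already known to be among the highest, so that ratio, and those of the other 6 genes in the same cells, are given as descriptions with no test.

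Plasminogen circulates as an inactive precursor and is cut to plasmin, a protease that dissolves fibrin and degrades matrix, by tissue-type plasminogen activator (Plat) and urokinase (Plau). Urokinase binds a receptor on the cell surface, uPAR (Plaur), and its activity is checked by serpins, which include PAI-2 (Serpinb2) and protease nexin-1 (Serpine2). On the fibrin-forming side, tissue factor (F3) starts coagulation and factor X (F10), once activated, cleaves prothrombin to thrombin. In tumours these genes are known to be divided among malignant cells, fibroblasts, macrophages and endothelium.

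B16F10 is a mouse melanoma cell line from C57BL/6 mice, injected under the skin of syngeneic hosts. The WT hosts were Rosa26::CreERT2 mice with wild-type Atf4 and the KO hosts were Rosa26::CreERT2 mice with a floxed Atf4, and both were given tamoxifen, so the Cre and the drug were common to both groups. The KO deleted Atf4 in all host tissues that express the Cre, and the injected melanoma cells kept their own Atf4. Each genotype was 1 single-cell RNA-seq library made from 2 pooled tumours of 11-week-old mice, and the labels give male and female for both pools. Without a second library per genotype no difference between hosts could be tested. Every interval below is a 95% interval for counting error alone and does not cover the spread between mice, and PCR and capture can add to it.

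The WT library held 6304 cell barcodes and the KO library 5474, with 38417113 and 38290024 unique molecular identifiers (UMIs, each 1 captured RNA molecule). After the study's cell filter 3861 WT and 3557 KO cells remained, at medians of 3920 and 6279 UMIs per cell. The libraries shared 10 barcodes, of which 1 was kept in both. Cells were sorted into classes by how many of a fixed set of marker genes they held, with no member of the list among the markers. This gave 182 WT and 215 KO fibroblasts, 1480 and 1031 myeloid cells, 1666 and 1821 melanoma cells, and 63 and 22 endothelial cells. The 10 fibroblast markers summed to 48944 CPM of the class (UMIs per 1e+06 UMIs of all genes) in WT fibroblasts and 36296 CPM in KO fibroblasts, and to at most 318 CPM in any other class (KO T/NK cells). Median depth was alike in the fibroblasts, at 3729.5 and 3747 UMIs, and in the myeloid cells, at 1755.5 and 1751.

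In 3 further respects the libraries stood apart, and with 1 library per genotype their relation to genotype cannot be told. UMIs of 4 Y-linked genes were absent from the WT fibroblasts and myeloid cells, whereas KO fibroblasts held 71 in 50 cells and KO myeloid cells held 169, although both pools are labelled as both sexes. Erythroid markers summed to 483 CPM in WT fibroblasts and 0 CPM in KO fibroblasts, and to 1731 and 1 CPM in myeloid cells. Clustering put melanoma cells of the 2 libraries largely into separate clusters. The part of these differences in the ratios below was not tested, and ratios over Xist-only cells, those that held Xist and none of the Y-linked genes, are given beside them.

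Atf4, the deleted gene, was checked first. Fibroblasts held 181 Atf4 UMIs in WT and 39 in KO, a log2 KO/WT ratio of −2.53 (−3.07 to −2.03), and myeloid cells 591 and 87, a log2 ratio of −2.23. Endothelial cells held 51 in WT and 0 in KO. Melanoma cells, which were not deleted, held 4357 and 4285, a log2 ratio of −0.10.

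The 7 genes lie at separate loci. In GRCm38, Serpinb2 (ENSMUSG00000062345) spans chr1:107511423-107535478 on the plus strand and Serpine2 (ENSMUSG00000026249) chr1:79794197-79861180 on the minus strand. Plau (ENSMUSG00000021822) spans chr14:20836660-20843385, Plaur (ENSMUSG00000046223) chr7:24462484-24475968, Plat (ENSMUSG00000031538) chr8:22757727-22782844, F3 (ENSMUSG00000028128) chr3:121723537-121735048 and F10 (ENSMUSG00000031444) chr8:13037308-13056676, all on the plus strand. All 7 are annotated as protein coding, and the UMIs are counted per gene, not per exon.

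Promoter windows were compared because the hosts differ in a transcription factor. Windows of 300 bases, 250 before and 50 after the annotated start site, were found for 5 of the 7 members in RefSeq (GRCm38.p6), in 6 entries. The ATF4 half-composite element TGATGNAAN, searched on both strands, was in 0 of the 6 entries and in 3.95% of 32851 mouse promoter windows. The AP-1 site TGANTCA was in 4 of the 6, against 7.81% of all windows, and these belonged to Serpinb2, Plaur and F3. The hypoxia element NACGTG was found in F10, as CACGTA read on the plus strand 45 bases before the start site, and is in 19.6% of all windows. A match describes the letters and not a bound site. The 3 windows with AP-1 letters are shown because this is the sequence feature that members of different roles and cell classes shared, with the matched bases in capitals.

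Serpinb2, chr1:107511173-107511472, plus strand: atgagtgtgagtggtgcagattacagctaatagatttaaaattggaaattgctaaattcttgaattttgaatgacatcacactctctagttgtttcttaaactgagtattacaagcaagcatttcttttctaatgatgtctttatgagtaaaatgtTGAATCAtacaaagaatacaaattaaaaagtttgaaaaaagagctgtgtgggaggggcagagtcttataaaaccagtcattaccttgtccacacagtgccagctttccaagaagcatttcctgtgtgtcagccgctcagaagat

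Plaur, chr7:24462233-24462532, plus strand: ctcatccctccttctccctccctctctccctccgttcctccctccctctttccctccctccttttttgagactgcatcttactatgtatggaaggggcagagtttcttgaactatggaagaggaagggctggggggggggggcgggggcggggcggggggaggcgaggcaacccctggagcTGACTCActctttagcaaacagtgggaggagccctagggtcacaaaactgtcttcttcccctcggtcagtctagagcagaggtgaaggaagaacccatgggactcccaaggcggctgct

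F3, chr3:121723287-121723586, plus strand: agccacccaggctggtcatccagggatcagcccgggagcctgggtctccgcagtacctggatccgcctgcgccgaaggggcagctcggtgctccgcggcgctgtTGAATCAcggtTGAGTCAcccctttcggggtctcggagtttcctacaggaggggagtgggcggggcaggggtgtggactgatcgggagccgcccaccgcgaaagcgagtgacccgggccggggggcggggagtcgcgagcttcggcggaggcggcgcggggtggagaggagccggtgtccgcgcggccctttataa

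In Serpinb2 the match TGAATCA begins 94 bases before the start site. In F3, TGAATCA and TGAGTCA begin 146 and 135 bases before it, and in Plaur TGACTCA begins 69 bases before it. The second Serpinb2 entry, with a start site further downstream, overlaps the first and holds the same match.

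Each gene had a home class. Of all UMIs in kept cells, fibroblasts held 74.7% (WT) and 85.1% (KO) of those of Serpinb2, 72.1% and 78.4% of those of Serpine2, and 69.7% and 66.8% of those of Plat. Myeloid cells held 69.4% and 78.5% of the Plau UMIs, 67.3% and 54.1% of the Plaur UMIs, and 89.3% and 89.6% of the F10 UMIs. Melanoma cells held 83.7% and 83.9% of the F3 UMIs. Thus most UMIs of the inhibitors and of the tissue-type activator lay in fibroblasts in both hosts. Those of urokinase, its receptor and factor X lay mostly in myeloid cells, and those of tissue factor in the malignant cells. Such shares follow class size as well as level. By level F3 was higher in fibroblasts, at 79.2 CPM in WT and 49.9 in KO, than in melanoma cells, at 34.5 and 35.4. Plau in WT was at 25.4 CPM in fibroblasts and 21.8 in myeloid cells. Plaur in KO was at 208 CPM in endothelial cells and 150 in myeloid cells.

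**Figure D1:**
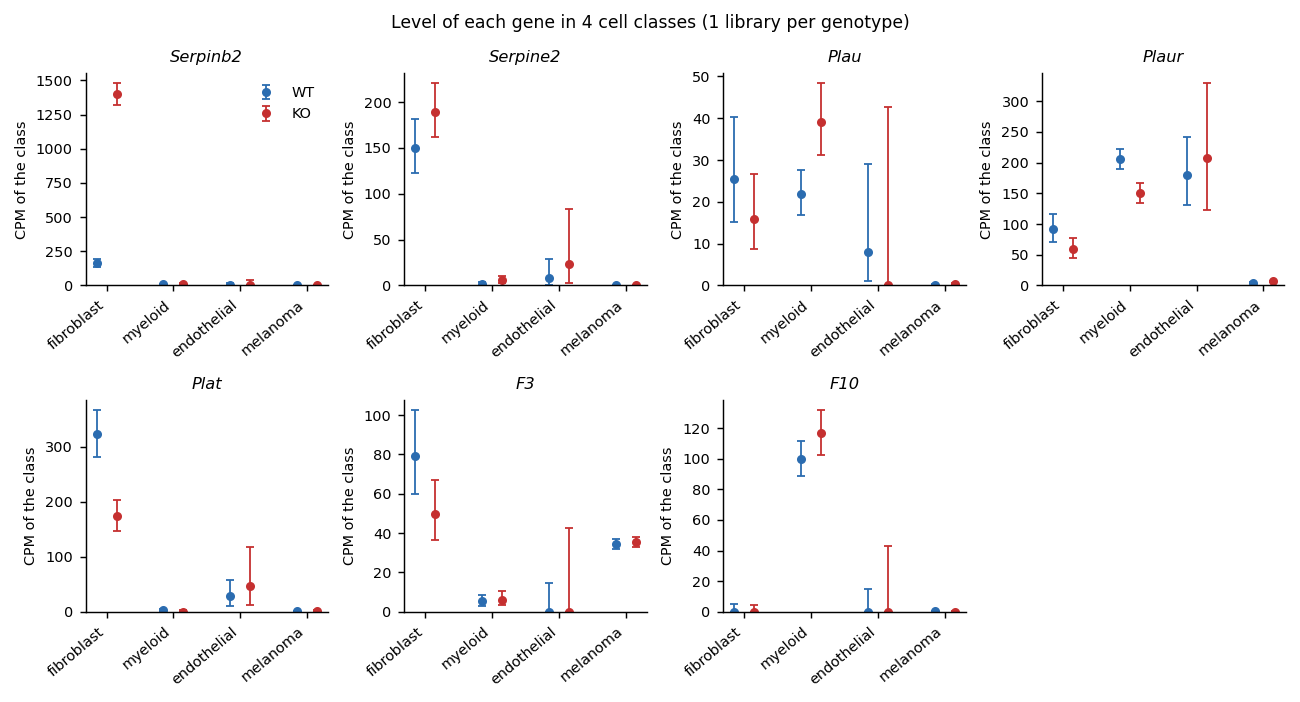
Level of each of the 7 genes in fibroblasts, myeloid, endothelial and melanoma cells, as CPM of the class, in the WT (blue) and KO (red) library; bars are exact 95% Poisson intervals for counting error. Each panel has its own axis. Serpinb2 in KO fibroblasts, at 1399 CPM, stands above its level in every other class and library.

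Serpinb2 encodes PAI-2, a serpin that inhibits urokinase and is largely kept inside cells. WT fibroblasts held 115 Serpinb2 UMIs, or 163 CPM (134 to 195), and KO fibroblasts 1233, or 1399 CPM (1322 to 1479). KO fibroblasts were 8.60-fold higher (7.10 to 10.5), a log2 ratio of 3.11 (2.83 to 3.39). The share of fibroblasts with a Serpinb2 UMI was 8.79% in WT (5.11 to 13.9, exact Clopper-Pearson) and 49.8% in KO (42.9 to 56.6), and 8.97% and 49.2% once each cell was thinned to 2000 UMIs. In melanoma cells, deeper at medians of 11475.5 and 10922 UMIs, the share was 0.180% in WT and 1.81% in KO. Among 7151 genes with at least 20 UMIs in fibroblasts, 5.38% were at least 2-fold higher in KO and 5.82% at least 2-fold lower. Serpinb2 ranked 14 by its ratio among these and 2 among the 1209 genes with at least 200 UMIs. Of the 6 members that passed this filter 1 was at least 2-fold higher, Serpinb2, and 0 at least 2-fold lower.

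The difference lay both in how many fibroblasts held Serpinb2 and in how many molecules they held. In WT 166 fibroblasts had none, and 10 had at least 5 UMIs. In KO 108 had none and 70 had at least 5. At least 20 UMIs were found in 1 WT and 17 KO fibroblasts, and those 17 cells carried 616 of the 1233 KO Serpinb2 UMIs. The highest cell held 25 UMIs in WT and 85 in KO. The gene was therefore uneven among the fibroblasts of a library, whose cells cannot be assigned to its 2 tumours, and in the KO library the 22 cells with the most UMIs carried 57.2% of its Serpinb2.

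Fibroblasts were divided further by marker gates that may overlap, of which vascular, adventitial, activated, hypoxic and cycling are named for their markers, with 124 cells in at least 2 gates. Vascular-gate cells, marked by Rgs5 and Notch3, held 0 Serpinb2 UMIs in 9 WT and 11 KO cells, so a difference in them was not detectable at this depth. Adventitial-gate cells, marked by Pi16 and Clec3b, held 5 UMIs in WT (48.8 CPM) and 244 in KO (1711 CPM), a log2 ratio of 5.13 (3.89 to 6.77). All 5 WT UMIs were in 1 of 24 cells, and 1 of the 35 KO cells held 85. The counting interval does not cover this spread between cells. Activated-gate cells, marked by Tnc and Postn among others, held 105 in WT (239 CPM) and 929 in KO (1657 CPM), a log2 ratio of 2.79. The vascular gate was thus the only gate with no Serpinb2 in either host.

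The highest level in both hosts was in fibroblasts of the hypoxic gate, defined by Pgf, Slc2a1, Ndrg1, Car9, Ankrd37 and Egln3, genes known to be induced at low oxygen. These cells held 91 UMIs in 28 WT cells (687 CPM, 553 to 844) and 807 in 60 KO cells (2695 CPM, 2512 to 2887), a log2 KO/WT ratio of 1.97 (1.66 to 2.30). Fibroblasts outside the gate held 24 UMIs in WT (41.7 CPM) and 426 in KO (732 CPM), a log2 ratio of 4.13 (3.54 to 4.79). The hypoxic gate was 16.5-fold above the remaining fibroblasts in WT and 3.68-fold above them in KO. In WT, 15.4% of the fibroblasts were in the hypoxic gate and carried 79.1% of the Serpinb2, and in KO 27.9% of them carried 65.5%. Serpinb2 thus lay mostly in hypoxic-gate cells in both libraries, and the cells outside the gate held a larger part of it in KO. The difference between the 2 ratios, inside and outside the gate, was not tested.

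Gate combinations gave the same order. Cells both activated and hypoxic held 725 CPM in WT and 2797 CPM in KO, and cells that were neither held 19.7 and 607 CPM. Cycling-gate cells held 2 UMIs in 40 WT cells and 217 in 30 KO cells. Cells in no gate held 4 (29.1 CPM) and 68 (489 CPM). All gates but the vascular one were higher in KO, with counting intervals of the log2 ratio that did not reach 0.

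**Figure D2:**
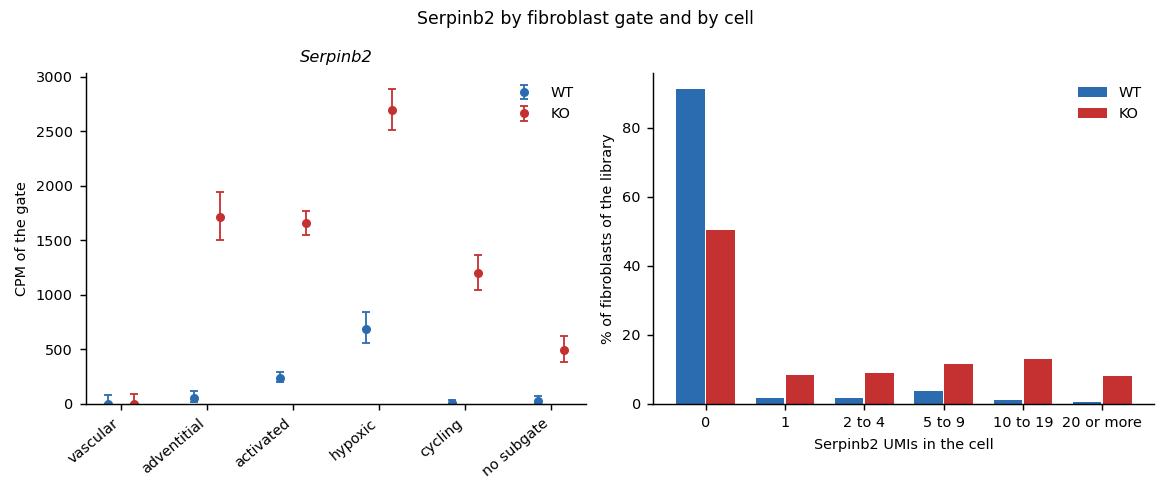
Left, Serpinb2 CPM in each fibroblast gate and in fibroblasts of no gate, WT (blue) and KO (red), with exact 95% Poisson intervals for counting error; gates may share cells. Right, percentage of fibroblasts of each library by the number of Serpinb2 UMIs in the cell, with 91.2% of WT and 50.2% of KO fibroblasts at 0.

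Splits of the fibroblasts that bear on the ratio kept its direction. Below the median depth of 3739 UMIs the log2 ratio was 3.33, and at or above it 3.02. Among Xist-only fibroblasts, 149 WT and 53 KO cells, it was 2.52 (2.16 to 2.89), from 168 and 963 CPM. The 50 KO fibroblasts with a Y-linked and no Xist UMI held 1849 CPM, and the part of sex in the level was not tested. Within the KO library the 26 fibroblasts that still showed an Atf4 UMI held 1543 CPM and the 189 without one 1375 CPM. The 26 cells were deeper, at a median of 4779.5 against 3699 UMIs. The part of free RNA in their Atf4 UMIs was not tested, so they need not be cells that kept the gene. Cells that passed both the fibroblast and the melanoma gate, kept out of either class as mixed, held 22.8 CPM in WT and 457 CPM in KO. Mixed cells that did not pass the fibroblast gate held 2 and 0 UMIs.

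Outside fibroblasts Serpinb2 was low. Myeloid cells held 26 UMIs in WT (8.35 CPM, 5.45 to 12.2) and 22 in KO (10.2 CPM, 6.41 to 15.5), a log2 ratio of 0.29 (−0.60 to 1.17). The WT level was above the 0.350 CPM estimated for RNA free in the droplets, and the KO level above the 3.50 CPM estimated in the same way. With free RNA subtracted the sign of the ratio turned, to −0.25 (−1.36 to 0.70). Within myeloid cells the Arg1 hypoxic gate held 24.7 CPM in WT and 21.6 in KO, the inflammatory gate 16.2 and 24.5, and the resident gate 2.35 and 3.85. The resident gate was the lowest of the 3 in both libraries, and the order of the other two differed between them. Over Xist-only myeloid cells the log2 ratio was 1.37 (−0.71 to 3.06), from 13 and 4 UMIs.

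Melanoma cells held 3 Serpinb2 UMIs in WT (0.156 CPM) and 33 in KO (1.63 CPM), each a single UMI in its cell. Their log2 ratio, 3.38 (1.71 to 5.73), is beside a Serpinb2 level over the whole library that was 4.16 CPM in WT and 41.6 CPM in KO, so free RNA differed in the same direction, and its part in the melanoma value was not tested. Endothelial cells held 0 in both hosts, where 3 counts of the total allow a share of cells with a UMI of up to 4.76% in WT and 13.6% in KO, and the exact Clopper-Pearson upper limits are 5.69% and 15.4%.

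Serpine2 encodes protease nexin-1, a secreted serpin that inhibits thrombin and both plasminogen activators. Fibroblasts held 106 UMIs in WT (150 CPM, 123 to 181) and 167 in KO (189 CPM, 162 to 220), a log2 ratio of 0.34 (−0.02 to 0.70). The share of fibroblasts with a UMI was 26.9% in WT and 32.1% in KO. The interval reached 0, and depth turned the sign: the log2 ratio was −0.32 (−0.87 to 0.22) in fibroblasts below the median depth and 0.96 (0.44 to 1.49) at or above it. In Xist-only cells the ratio became 0.54 (−0.01 to 1.08).

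By gate Serpine2 had another order than Serpinb2. It was highest in the vascular gate of the KO library, at 33 UMIs in 11 cells (772 CPM), against 10 UMIs in 9 WT cells (227 CPM), a log2 ratio of 1.76 (0.71 to 2.95). It was lowest in WT in the hypoxic gate, at 60.4 CPM (8 UMIs), where KO held 124 CPM (37 UMIs). In fibroblasts of no gate it was lower in KO, with 37 UMIs in WT (269 CPM) and 18 in KO (130 CPM), a log2 ratio of −1.05 (−1.95 to −0.20). The gates therefore did not share 1 direction, and the vascular values rest on 20 cells in all. Of the 33 KO UMIs in the vascular gate, 13 were in 1 cell, a spread that the counting interval does not cover. Myeloid cells held 5 and 13 UMIs, at 1.61 and 6.04 CPM.

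Plat encodes tissue-type plasminogen activator. It was lower in KO fibroblasts, which held 153 UMIs (174 CPM, 147 to 203) against 228 in WT (322 CPM, 282 to 367), a log2 ratio of −0.89 (−1.20 to −0.59). A Plat UMI was found in 65.9% of WT and 43.3% of KO fibroblasts, and in 48.7% and 25.4% after thinning. Among Xist-only fibroblasts the log2 ratio was −0.73 (−1.28 to −0.21). It was −0.52 (−1.07 to 0.02) in fibroblasts below the median depth, where the interval reached 0, and −1.06 at or above it.

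The lower level was carried by most gates. In the vascular gate all 9 WT cells held Plat, 24 UMIs in all (546 CPM), against 4 UMIs in 11 KO cells (93.6 CPM), a log2 ratio of −2.54. Activated-gate cells held 348 CPM in WT and 173 in KO, cycling-gate cells 378 and 171, and hypoxic-gate cells 302 and 157. These 4 gates were lower in KO with intervals that did not reach 0. Adventitial-gate cells held 215 CPM in WT and 161 in KO (log2 −0.41, −1.32 to 0.50), and cells of no gate 211 and 202 CPM. Vascular-gate fibroblasts thus held more Serpine2 and less Plat in KO than in WT, on 9 and 11 cells.

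In melanoma cells Plat was at 31 UMIs in WT (1.61 CPM) and 45 in KO (2.22 CPM), a log2 ratio of 0.46 (−0.23 to 1.17). Endothelial cells, a known source of this activator, held 7 UMIs in WT (28.1 CPM) and 4 in KO (46.3 CPM), in 63 and 22 cells. Myeloid cells held 8 and 1.

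Plau encodes urokinase. Fibroblasts held few copies, 18 UMIs in WT (25.4 CPM) and 14 in KO (15.9 CPM), and the interval of the log2 ratio, −0.68 (−1.80 to 0.41), spanned 0. Over Xist-only fibroblasts the sign turned, at 0.29 (−1.35 to 1.71) on 16 and 6 UMIs. Myeloid cells held 68 UMIs in WT (21.8 CPM, 17.0 to 27.7) and 84 in KO (39.1 CPM, 31.2 to 48.4), a log2 ratio of 0.84 (0.36 to 1.32). Among the 9455 genes with at least 20 UMIs in myeloid cells, 2.65% were at least 2-fold higher and 2.7% at least 2-fold lower in KO. Of the 5 members that passed this filter 0 were past 2-fold in either direction.

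The make-up of the myeloid class differed between libraries, so its ratios mix gate shares with levels within gates. The resident gate held 17.1% of WT and 30.8% of KO myeloid cells, the Arg1 hypoxic gate 8.78% and 17.6%, and the MHC class II gate 30.3% and 22.4%. The myeloid gates also differed in level. In the Arg1 hypoxic gate Plau was at 6 UMIs in WT (18.5 CPM) and 30 in KO (72.1 CPM), a log2 ratio of 1.96 (0.67 to 3.52). Resident-gate cells, marked by Lyve1 and Folr2, held 34.0 and 43.3 CPM, and C1q-high cells 33.5 and 40.7. Monocyte-gate cells, marked by Ly6c2 and Ccr2, were the lowest, at 6.21 and 8.61 CPM on 2 UMIs each. In WT the highest levels were therefore, with intervals that overlapped that of the inflammatory gate at 27.3 CPM, in the resident and C1q-high gates. In KO the highest level was in the Arg1 hypoxic gate (48.7 to 103 CPM). That interval overlapped those of the resident (31.6 to 57.9), C1q-high (25.5 to 61.6), inflammatory (28.1 to 72.8) and interferon (20.4 to 121) gates. A change of the top gate between libraries is therefore not established. Over Xist-only myeloid cells the ratio was 0.40 (−0.80 to 1.43), on 57 and 9 UMIs.

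Plaur encodes uPAR, the membrane-anchored receptor that concentrates urokinase at the cell surface. Myeloid cells held 641 UMIs in WT (206 CPM, 190 to 222) and 322 in KO (150 CPM, 134 to 167), a log2 ratio of −0.46 (−0.66 to −0.26), with a UMI in 31.9% and 24.4% of cells. Fibroblasts held 65 (91.9 CPM) and 52 (59.0 CPM), a log2 ratio of −0.64 (−1.19 to −0.09). Melanoma cells went the other way, with 80 UMIs in WT (4.16 CPM) and 132 in KO (6.51 CPM), a log2 ratio of 0.65 (0.23 to 1.07). Plaur was thus lower in KO fibroblasts and myeloid cells and higher in KO melanoma cells, while over the whole library it was at 28.1 CPM in WT and 18.4 in KO. Endothelial cells, at 45 UMIs in WT (180 CPM) and 18 in KO (208 CPM), had a log2 ratio of 0.21 (−0.67 to 1.02). Over Xist-only cells the log2 ratio was −0.44 (−0.99 to 0.07) in myeloid cells and −0.52 (−1.56 to 0.40) in fibroblasts. Fibroblasts below the median depth gave −0.28 (−1.44 to 0.87).

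Among myeloid gates Plaur was highest in monocyte-gate cells, at 444 CPM in WT and 340 in KO, and lowest in resident-gate and C1q-high cells in WT, at 84.5 and 88.9 CPM, and in KO, at 62.5 and 83.2 CPM. Plau and Plaur thus had opposite orders in WT, with the ligand highest where the receptor was lowest. The Arg1 hypoxic gate held 262 CPM of Plaur in WT and 171 in KO, a log2 ratio of −0.62 (−1.10 to −0.15), while Plau in the same cells was higher in KO. The MHC class II gate held 253 and 277 CPM, a log2 ratio of 0.13 (−0.22 to 0.48), so not every gate was lower.

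**Figure D3:**
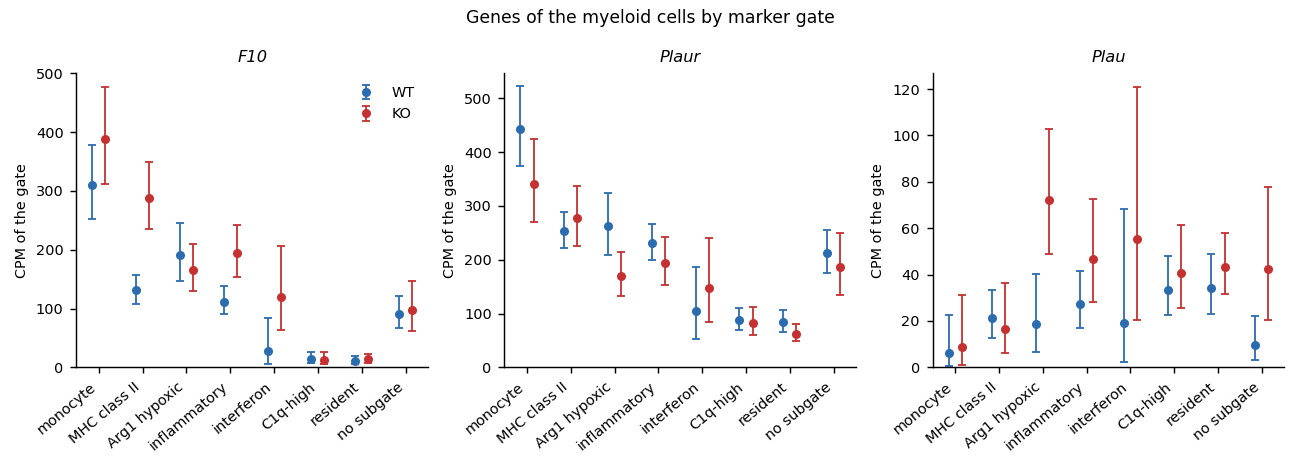
F10, Plaur and Plau in myeloid cells by marker gate, as CPM of the gate, in WT (blue) and KO (red), with exact 95% Poisson intervals for counting error; gates may share cells. F10 and Plaur were highest in the monocyte gate of both libraries, where Plau was lowest.

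F3 encodes tissue factor, the membrane receptor that starts coagulation by binding factor VII. In melanoma cells it was at 664 UMIs in WT (34.5 CPM, 31.9 to 37.2) and 719 in KO (35.4 CPM, 32.9 to 38.1), a log2 ratio of 0.04 (−0.12 to 0.19), with a UMI in 29.9% and 27.9% of cells. For counting error alone, the interval keeps the difference between the WT and KO libraries in these cells within 0.19 on the log2 scale. It does not bound a difference between hosts. Of 12169 genes with at least 20 UMIs in melanoma cells, 3.77% were at least 2-fold higher and 1.04% at least 2-fold lower in KO. Of the 4 members that passed 1 was higher, Serpinb2. It passed the filter only through its 33 KO UMIs, against 3 in WT, so its place in this count is no result about the members.

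In fibroblasts F3 was at 56 UMIs in WT (79.2 CPM) and 44 in KO (49.9 CPM), a log2 ratio of −0.67 (−1.27 to −0.07). The hypoxic gate and the remaining fibroblasts went opposite ways. Outside the gate F3 was at 54 UMIs in WT (93.9 CPM) and 24 in KO (41.2 CPM), a log2 ratio of −1.19 (−1.95 to −0.47), and inside it at 2 in WT (15.1 CPM) and 20 in KO (66.8 CPM), a log2 ratio of 2.14 (0.10 to 5.29). The difference between these ratios was not tested and rests on 2 UMIs in WT hypoxic-gate cells. Fibroblasts below the median depth had a log2 ratio of 0.31 (−0.97 to 1.64). Over Xist-only cells the fibroblast ratio was −0.74 (−1.95 to 0.30). In KO, 65.7% of the fibroblasts with an F3 UMI also held Serpinb2, against 46.7% of those without, and in WT 5.71% against 9.52%. The shares with F3 are 23 of 35 cells in KO and 2 of 35 in WT. They were not thinned to equal depth, and their difference was not tested. Endothelial cells held 0 F3 UMIs in both libraries and myeloid cells 17 and 13.

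F10 encodes coagulation factor X, a protein made mainly in the liver and also known in monocytes and macrophages. Myeloid cells held 310 UMIs in WT (99.6 CPM, 88.8 to 111) and 251 in KO (117 CPM, 103 to 132), a log2 ratio of 0.23 (−0.02 to 0.47). Fibroblasts and endothelial cells held 0 in both hosts, and melanoma cells 7 and 3. Monocyte-gate cells were the highest, at 310 CPM in WT and 388 in KO. Resident-gate cells, at 10.6 CPM in WT and 13.5 in KO, and C1q-high cells, on 13 and 7 UMIs, were the lowest. As for Plaur, the monocyte gate thus stood at the top and these gates at the bottom in both libraries.

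The middle of that order differed between hosts. In the MHC class II gate F10 was at 117 UMIs in WT (131 CPM) and 104 in KO (288 CPM), a log2 ratio of 1.14 (0.74 to 1.53). The inflammatory gate held 112 and 194 CPM, a log2 ratio of 0.79 (0.34 to 1.25), and the interferon gate 28.4 and 120 CPM on 3 and 13 UMIs. The Arg1 hypoxic gate held 191 CPM in WT and 166 in KO (log2 −0.21, −0.72 to 0.31). Over Xist-only myeloid cells the log2 ratio was 0.72 (0.15 to 1.26), on 173 and 34 UMIs.

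**Figure D4:**
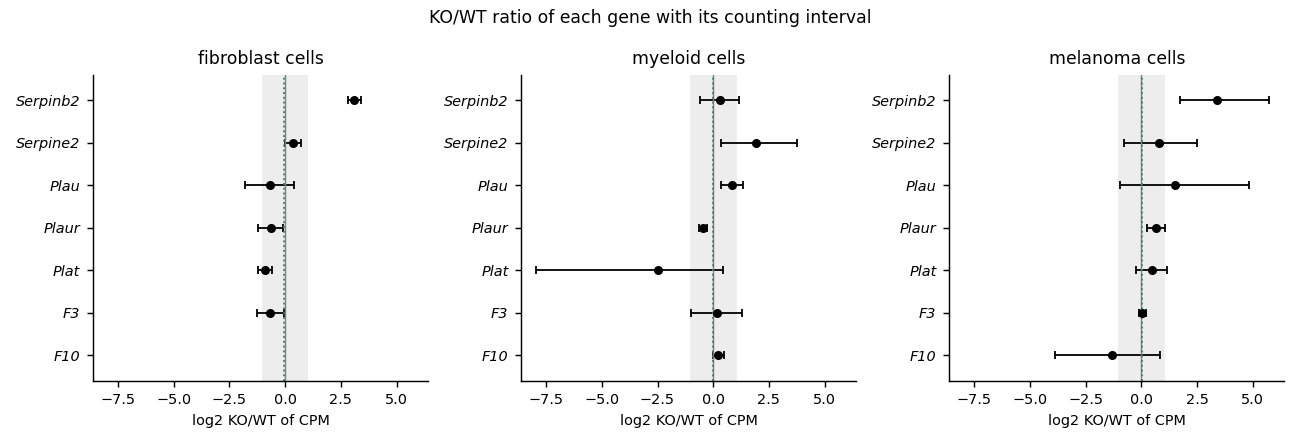
Log2 KO/WT ratio of the CPM of each of the 7 genes in fibroblasts, myeloid cells and melanoma cells, with exact 95% intervals for counting error; no F10 point is drawn for fibroblasts, which held 0 UMIs. The grey band spans 2-fold in either direction and the dotted line is the median of all genes with at least 20 UMIs in the class.

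A wider list of 45 genes of plasminogen activation, coagulation and its control set the members beside their partners. In fibroblasts 17 of the 45 had at least 20 UMIs, 2 were at least 2-fold higher in KO and 2 at least 2-fold lower, where 5.38% and 5.82% of all genes were, and their median log2 ratio was 0.03, against −0.03 for all 7151 genes and −0.65 for the 6 members. Both of the higher genes belong to the protein C pathway, which restrains clotting on the cell surface. Pros1, another listed gene of that pathway, was not higher, at 88 UMIs in WT and 90 in KO (log2 −0.28, −0.73 to 0.16). Thbd, thrombomodulin, was at 22 UMIs in WT and 92 in KO, a log2 ratio of 1.75 (1.06 to 2.49). Procr, the endothelial protein C receptor, was at 9 and 59, a log2 ratio of 2.40 (1.37 to 3.59). Procr passed the filter only through its KO UMIs, so its place in the count of higher genes is no result about the list. The lower genes were Tfpi2, a Kunitz-type protease inhibitor, at 88 and 50 UMIs (log2 −1.13), and F2r, the thrombin receptor PAR1, at 76 and 37 (log2 −1.36).

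The plasminogen-binding pair S100a10 and Anxa2 had log2 ratios of 0.53 and 0.45 in fibroblasts, and Mrc2, a collagen receptor known to associate with uPAR, −0.69 (−1.04 to −0.34).

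**Figure D5:**
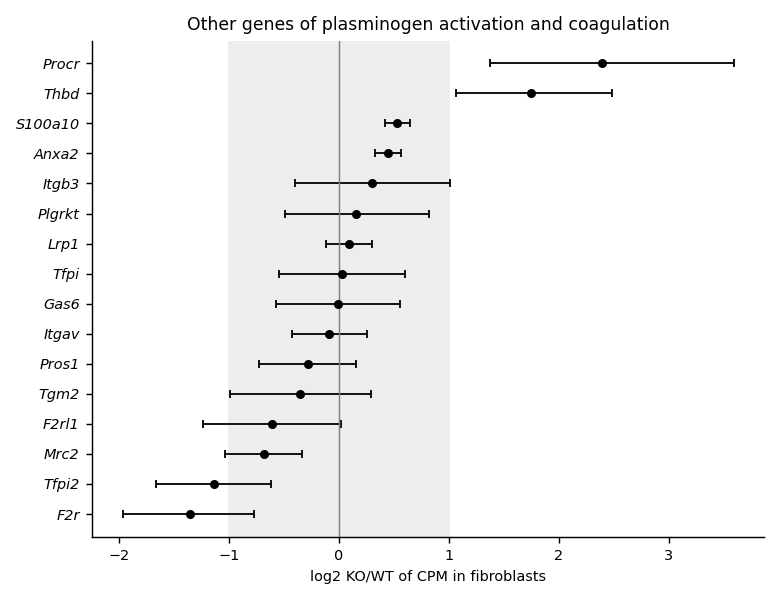
Log2 KO/WT ratio of CPM in fibroblasts, with exact 95% intervals for counting error, of the genes of the wider list with at least 20 UMIs, leaving out the gene not reported here. The grey band spans 2-fold in either direction; Procr and Thbd lie above it, and F2r and Tfpi2 below it.

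In myeloid cells 17 of the 45 genes had at least 20 UMIs, with 1 at least 2-fold higher in KO, 3 at least 2-fold lower and a median log2 ratio of −0.03, where 2.65% and 2.7% of all genes in these cells were past 2-fold. F13a1, the clot-crosslinking factor XIII A subunit, was at 1633 UMIs in WT and 2869 in KO (log2 1.35). F7, the ligand of tissue factor, was at 197 and 53 (log2 −1.36), while F10, cleaved by that pair, was at a log2 ratio of 0.23. Hgf and Vwf, on 37 and 30 UMIs in all, were the other lower genes. Hgf was at 28 UMIs in WT and 9 in KO (log2 −1.10, −2.37 to 0.02), so its interval reached 0. Vwf was at 25 and 5 (log2 −1.79, −3.53 to −0.38). Both passed the filter only through their WT UMIs. In melanoma cells 17 of the 45 passed as well, with a median log2 ratio of 0.30, and 2 were at least 2-fold higher in KO, F13a1 (28 and 68 UMIs, log2 1.20) and Tgm2 (7 and 20 UMIs, log2 1.44), and 0 lower, where 3.77% of all genes were higher and 1.04% lower. F13a1 was also higher in KO myeloid cells, and the part of free RNA in its melanoma value was not tested. Tgm2 passed the filter only through its 20 KO UMIs, so its place in the count is no result about the list.

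Of the 13 clade B serpins other than Serpinb2 on the list, 12 were in the matrices and 3 had at least 20 UMIs in fibroblasts. Serpinb6a had a log2 ratio of 0.69 (0.55 to 0.84), Serpinb1a −0.39 (−1.05 to 0.27) and Serpinb9, a granzyme B inhibitor, −1.69 (−2.78 to −0.68). None of the 3 was at least 2-fold higher and 1 was at least 2-fold lower, beside 5.38% and 5.82% of all genes in fibroblasts. The lower one, Serpinb9, passed the filter only through its 31 WT UMIs, against 12 in KO. In myeloid cells 4 passed and 0 were past 2-fold, beside 2.65% of all genes higher and 2.7% lower. In melanoma cells 2 of 5 were at least 2-fold higher in KO, beside 3.77% of all genes, and 0 were lower, beside 1.04%. Serpinb1a was at 16 UMIs in WT (0.831 CPM) and 42 in KO (2.07 CPM), log2 1.32, and passed the filter only through its KO UMIs. Serpinb8 was at 23 (1.20 CPM) and 60 (2.96 CPM), log2 1.31. Both levels were low, the part of free RNA in them was not tested, and the count is no result about these serpins.

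Patterns most like each member were sought over 34 points, the classes and gates of each library with at least 50000 UMIs, among 10092 genes. The points share cells and libraries, so the Pearson correlations of log2(CPM + 10) are descriptions only. Nearest to Serpinb2 were Cxcl5 (r = 0.96), Il1rl1 (0.94), Il33 (0.93), Steap2 (0.93) and Ndufa4l2 (0.93), of which Il1rl1 is itself a marker of the activated gate. Nearest to Serpine2 was Il1r1 (0.98), and nearest to Plat were the matrix genes Col8a1, Bgn and Col6a3 (all 0.99). Nearest to F10 were Clec4e (0.97), Ltb4r1 (0.97) and Il1b (0.97), and to Plaur Fxyd5 (0.93). Plau had no close match, with Plekha2 first at 0.79. Nearest to F3 was Vgll3 (0.95).

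The genes nearest Serpinb2 also had KO/WT ratios of the same sign in fibroblasts, which the correlation itself uses. Cxcl5, a neutrophil chemokine, had a log2 ratio of 3.68, Il1rl1, the IL-33 receptor, 2.40 and Il33 itself 2.32. Steap2 and Ndufa4l2, a hypoxia-induced gene, had 1.32 and 1.08.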

How the data were processed

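Small B16F10 tumours from WT and KO hosts were dissociated and profiled by droplet single-cell RNA-seq, 1 library per genotype. The authors aligned reads with Cell Ranger 3.1.0 to GRCm38 and deposited raw UMI counts per gene and cell, which were used as deposited. Submitters' processing notes also name Seurat 3.2.1. The labels and the methods of the study name different kit versions.

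Following the filter stated for the study, a cell had to show between 200 and 5000 genes, with no more than 7.5% of its UMIs mitochondrial. Each gate required a minimum number of distinct markers with a UMI: 5 of 10 for fibroblasts, 4 of 10 for myeloid and endothelial cells, 6 of 10 for melanoma cells and 3 for neutrophil, dendritic and T/NK cells. These minimums were set after seeing the distributions of marker counts; cells that passed more than 1 class gate were called mixed (140 WT, 92 KO), and 289 and 352 cells passed none. Scrublet called 129 WT (3.34%) and 81 KO (2.28%) cells as doublets, which were kept in the main values and removed in an alternative. Counts were summed per class and library and given as CPM of the class with exact Poisson intervals. Intervals of the KO/WT ratio at 95% are exact, conditional on the sum of both counts; a count of 0 was set to 3. Alternatives were a looser mitochondrial limit, removal of doublets, no cap on genes, stricter gates, Leiden clusters, another CPM total, Xist-only cells and free RNA subtracted. The ratio code was tested on simulated data. Free RNA was estimated from the summed UMIs of the 10 melanoma markers in non-melanoma cells, relative to their share of the whole library. All 7 members are named, list genes where they had at least 20 UMIs, and the 5 nearest genes of each member by correlation. One gene of the wider list is counted but not reported here by name. The members and lists were chosen with earlier results of these data known. Promoter and motif letters come from RefSeq. Python 3.11.15, numpy 2.4.6, scipy 1.17.1, pandas 2.3.3, scanpy 1.11.5, leidenalg 0.10.2 and matplotlib 3.10.9 were used.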

Additional observations from a re-analysis of the deposited data

Results flagged for a closer look

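Plaur was flagged because its host difference had opposite signs in different cell classes of the same libraries. Its log2 KO/WT ratio was −0.64 (−1.19 to −0.09) in fibroblasts and −0.46 (−0.66 to −0.26) in myeloid cells, and 0.65 (0.23 to 1.07) in melanoma cells. With 1 library per genotype the difference between these ratios was not tested. The melanoma value rests on 80 and 132 UMIs, and the classes of 1 library share its free RNA.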

How the results depend on the processing

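No paired analysis was possible because WT and KO had a single library apiece. Over 104 alternative settings of 12 ratios, 99 left the log2 ratio within its counting interval, 5 moved it outside and 0 reversed a ratio whose interval lay off 0; 100 kept the sign. Serpinb2 in fibroblasts ranged from 2.52, over Xist-only cells (Xist and no Y-linked gene detected), to 3.51, with mixed cells that passed the fibroblast gate kept, a setting chosen after seeing the data. The Xist setting also gave 0.72 for F10 and 1.37 for Serpinb2 in myeloid cells. Leiden clusters gave −0.40 for Plat in melanoma cells, leaving a cluster of 16 WT and 653 KO cells unnamed. The signs of 3 further ratios with intervals that spanned 0 turned: Plau in fibroblasts (0.29, Xist-only), Serpinb2 in myeloid cells (−0.25, free RNA subtracted) and Serpine2 in melanoma cells (−0.25, 1 more marker required). Plat in fibroblasts stayed between −0.92 and −0.66, off 0 in all 10 settings. Plaur was off 0 in 9 of 10 and F3 in 6 of 10 in fibroblasts, and Plau and Plaur in 7 of 8 each in myeloid cells. Serpine2 in fibroblasts was off 0 in 5 of 10. Differences between mice, tumours or days cannot be told apart from genotype, and Serpinb2, Plau and F3 in gates with under 10 UMIs are limited by depth.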
